A study of Mus musculus with 8 samples.

Results

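A set of 10 interferon response genes was described in the H3K9 methylation maps of wild-type mouse embryonic fibroblasts (MEFs): Tlr3, Ifit1, Ifit2, Ifit3, Oas1a, Oas2, Oas3, Oasl2, Dhx58 and Irf1. They were taken by name from double-stranded RNA sensing and interferon response genes on chromosomes that the region lists cover broadly. The choice was thus not blind to the maps. All 10 were found among 55413 annotated genes. Chromatin immunoprecipitation followed by sequencing (ChIP-seq), in which an antibody pulls down the DNA wrapped around histones that carry a given mark, was done for the mono-, di- and trimethylated forms (H3K9me1, H3K9me2 and H3K9me3) of lysine 9 on histone H3. The 8 samples were 2 replicates of each mark and 2 of input, the sonicated DNA before immunoprecipitation. According to the study's methods, the cells named wild type are E1c MEFs, which carry a tamoxifen-inducible conditional deletion of the H3K9 methyltransferase gene Eset1 (Setdb1), and they are a single clone selected for high Cre activity. The values below therefore describe cells of this clone, labelled wild type, without interferon or virus treatment in the labels. The files hold 1 list of enriched regions per mark for both replicates, with a start and an end and no height or score, so there are no replicate values, no SD and no test. How many reads stand behind any region cannot be read from them, and they hold no expression values by which the cell type could be checked.

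Double-stranded RNA, made by viruses and also by transcribed repeats, is bound by receptors that switch on interferon genes, and secreted interferon then induces a large set of response genes in the same and neighbouring cells. Tlr3 is the endosomal receptor for double-stranded RNA, and Dhx58 encodes the cytosolic RNA helicase LGP2. Irf1 is a transcription factor of this response, whereas the Oas genes encode RNA-activated oligoadenylate synthetases and the Ifit genes encode proteins that bind viral RNA. H3K9me2 and H3K9me3 are marks of silent chromatin and repeats, while H3K9me1 also occurs in transcribed genes.

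The 10 genes lie on chromosomes 5, 8, 11 and 19, where the 3 lists together cover 36.1%, 62.5%, 27.0% and 54.9% of the sequence. Oas1a, Oas2, Oas3 and Oasl2 are on chromosome 5, Tlr3 is on chromosome 8, Dhx58 and Irf1 are on chromosome 11, and Ifit1, Ifit2 and Ifit3 are on chromosome 19. All coordinates are mm10 (GRCm38). As background, the same counts were made over the 4658 protein-coding genes of these 4 chromosomes, which had a median length of 17 kb and a median of 3.0 annotated start sites, against 13.3 kb and 3.5 for the 10 genes.

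Start sites of the response genes were first scored in a window of 1 kb to each side of every annotated start, and a gene counted when at least 1 bp of it was inside a region. H3K9me1 met this window in 5 of 10 genes, namely Tlr3, Oas2, Oas3, Oasl2 and Dhx58, beside 50.3% of the background genes. H3K9me2 met it in 4 genes, Tlr3, Oas1a, Oas2 and Oas3, beside 16.8%. H3K9me3 met it in 0 of 10 genes, beside 14.7%. Any mark met it in 6 genes, beside 58.2%, and Ifit1, Ifit2, Ifit3 and Irf1 had no region of any mark there. The H3K9me1 count was thus close to its background share, the H3K9me2 count was above it, and the H3K9me3 count was below it. By covered share of the same windows the H3K9me2 mean was 10.1% in the response genes and 10.2% in the background, so the higher count did not go with more covered bases. With 10 genes in 7 separate neighbourhoods these counts are small, and tandem neighbours are not independent of each other.

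Most of these overlaps touched only an edge of the window or an alternative start site. Of the 44 annotated start sites of the 10 genes, 6 were themselves inside an H3K9me1 region, 2 inside an H3K9me2 region and 0 inside an H3K9me3 region. The same share over background start sites was not counted, so these counts cannot be called low or high. Irf1, Oasl2 and Tlr3 give 10, 9 and 8 of the sites, many of them close together. When only the outermost 5′ end of each gene was used, H3K9me1 met the window in 3 genes (Tlr3, Oas2 and Oas3) beside 26.3% of the background, H3K9me2 in 2 genes (Tlr3 and Oas1a) beside 12.2%, H3K9me3 in 0 genes beside 11.4%, and any mark in 4 genes beside 34.2%. Only Oas2 had its 5′ end inside a region, and that region was H3K9me1.

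**Figure D1:**
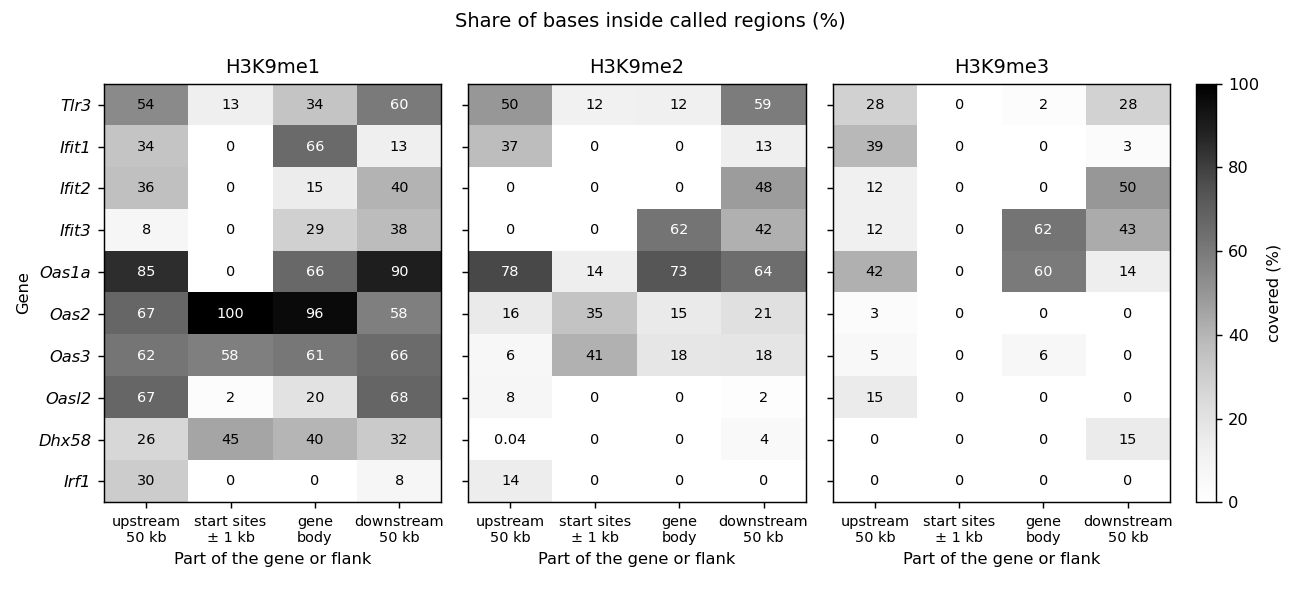
Share of bases inside called regions (%), for the 10 genes in rows and the upstream 50 kb, the start windows, the gene body and the downstream 50 kb in columns, with 1 panel per mark. The H3K9me3 start window column is 0 for all 10 genes, while Oas1a and Oas2 hold the darkest H3K9me1 cells.

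The matches found to recognition sequences for interferon-activated factors lay outside the marked intervals. The interferon-stimulated response element (ISRE), bound by STAT and IRF factors, was searched as GAAA and GAAA with any 2 bases between them, and the gamma-activated site (GAS), bound by STAT dimers, as TTCNNNGAA, on both strands of the 250 bases before the RefSeq start site. RefSeq entries (GRCm38.p6) were matched for 8 of the 10 genes, and Oas2 and Dhx58 had none. The search thus left out Oas2, the only gene with its 5′ end inside a region. An ISRE match was present in 4 of the 10 promoters of these 8 genes, those of Ifit1, Ifit3, Oas1a and Oas3, beside 2.98% of all 32851 promoters. A GAS match was present in 3 of the 10 promoters, in Ifit2, Oas1a and Irf1, beside 7.02%. Tlr3 and Oasl2 held neither. The bases just before the RefSeq start are shown for the genes with an ISRE match and for Irf1. The Ifit2 GAS match, 233 bases before the start, is not printed. They run 5′ to 3′ on the gene's strand with the matches in capitals.
Ifit1 (chr19:34640769-34640888, plus strand, ISRE): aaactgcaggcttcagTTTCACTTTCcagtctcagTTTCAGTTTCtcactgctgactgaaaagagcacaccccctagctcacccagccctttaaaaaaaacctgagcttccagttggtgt
Ifit3 (chr19:34583369-34583528, plus strand, ISRE): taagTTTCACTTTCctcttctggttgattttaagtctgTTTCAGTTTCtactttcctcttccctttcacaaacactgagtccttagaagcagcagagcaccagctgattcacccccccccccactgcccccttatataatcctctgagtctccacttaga
Oas1a (chr5:120907526-120907645, minus strand, GAS then ISRE): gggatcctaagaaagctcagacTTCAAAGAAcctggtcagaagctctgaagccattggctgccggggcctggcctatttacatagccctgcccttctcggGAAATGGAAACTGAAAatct
Oas3 (chr5:120777660-120777779, minus strand, ISRE): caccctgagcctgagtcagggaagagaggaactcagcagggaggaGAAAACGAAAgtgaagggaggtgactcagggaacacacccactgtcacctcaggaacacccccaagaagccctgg
Irf1 (chr11:53769894-53770013, plus strand, GAS): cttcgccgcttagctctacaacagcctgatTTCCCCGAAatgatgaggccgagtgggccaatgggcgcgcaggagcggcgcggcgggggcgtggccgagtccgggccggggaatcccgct
In Oas1a the ISRE letters match at 2 overlapping positions, joined into 1 capital run, and the GAS match stands apart from them. A match is a description of the letters and not evidence of a bound site.

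No matched element of these genes lay inside a region, but their distances differed widely. How often matches over all promoters lie outside regions was not counted. Only 34.2% of the background genes met any mark within 1 kb of the 5′ end, so starts free of regions are common. The Oas3 ISRE was 17 bp from the nearest H3K9me1 region, chr5:120777751-120779250, which lies just upstream. The nearer Oas1a ISRE was 0.706 kb from an H3K9me2 region and 1.46 kb from an H3K9me1 region. Region borders lie on a grid of 750 bp. Smaller gaps, as at Oas3 and for H3K9me2 at Oas1a, thus do not show the element to be free of the mark. The Ifit3 ISRE was 2.08 kb from regions of all 3 marks, and the Ifit1 ISRE was 3.19 kb from H3K9me1 and 29.8 kb from H3K9me3. The Ifit2 GAS was 21.5 kb from H3K9me1, 35.0 kb from H3K9me2 and 10.7 kb from H3K9me3. The Irf1 GAS was the most remote, at 24.9 kb from H3K9me1, 40.7 kb from H3K9me2 and 289 kb from H3K9me3.

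Gene bodies were met more often than start sites, in the response genes and in the background alike. Each of the 10 bodies is longer than its start windows, and longer intervals are met more often by construction. H3K9me1 was present in the body of 9 of 10 genes, all but Irf1, beside 70.9% of the background genes. H3K9me2 was present in 5 bodies, those of Tlr3, Ifit3, Oas1a, Oas2 and Oas3, beside 26.9%, and H3K9me3 in 4, those of Tlr3, Ifit3, Oas1a and Oas3, beside 23.0%. Any mark was present in 9, beside 77.4%. The median covered share of a body was 37.0% for H3K9me1, 5.95% for H3K9me2 and 0.0% for H3K9me3, against 33.4%, 0.0% and 0.0% in the background.

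Within the bodies the regions lay toward the 3′ end, as seen when each body was split at its midpoint. In all 9 genes with H3K9me1 in the body, the part after the midpoint was covered more than the part before it, and no gene was the other way round. The part after the midpoint was the more covered in 47.7% of all background genes, and in 72.5% of those where both parts differed. The mean H3K9me1 share of the response genes was 23.8% before and 61.4% after the midpoint, against 32.8% and 44.0% in the background. For H3K9me2 the later part was the more covered in 5 genes, beside 12.4% of the background, and for H3K9me3 in 4 genes, beside 10.5%. Most background genes held neither mark in the body. Among those where both parts differed, the shares were 51.5% and 53.6%. No response gene was the other way round for these 2 marks. For any mark the later part was the more covered in 9 genes, beside 48.8%. In the background both parts were nearly equal for the higher methylation states, with 11.7% before and 12% after the midpoint for H3K9me2 and 9.96% and 10.5% for H3K9me3. The response genes had 7.06% and 29.0% for H3K9me2, and 4.4% and 21.7% for H3K9me3. This split was chosen after the regions of each gene had been seen. The H3K9me1 count drops to 5 when regions under 5 kb are left out. With regions up to 5 kb apart joined it drops to 7, and the count for any mark drops from 9 to 6.

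**Figure D2:**
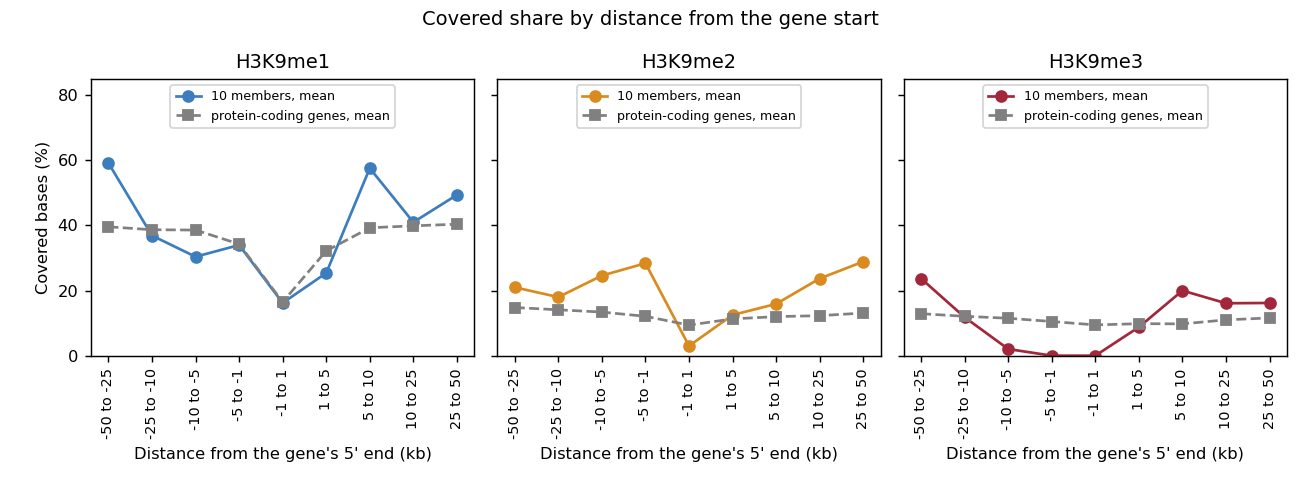
Mean covered share (%) by distance from the outermost 5′ end of the gene (kb, negative is upstream, intervals of unequal width), for the 10 response genes (circles, solid) and the 4658 protein-coding genes of chromosomes 5, 8, 11 and 19 (squares, dashed). Lines join the means and no error is drawn, since the lists hold no replicates; H3K9me3 is at 0.0% from 5 kb upstream to 1 kb downstream in the response genes and near 10% in the background.

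The profile by distance put these counts on one axis. From 5 to 1 kb upstream of the 5′ end, H3K9me3 covered 0.0% in the response genes and 10.5% in the background, while H3K9me2 covered 28.4% against 12.1%. Within 1 kb of the 5′ end, H3K9me1 was at 16.2% against 16.5% in the background, H3K9me2 at 3.0% against 9.4% and H3K9me3 at 0.0% against 9.45%. From 5 to 10 kb downstream H3K9me1 reached 57.6% against 39.3% and H3K9me3 20.0% against 9.78%. Only 2 of the 10 response genes had any H3K9me3 in that interval. It lies partly beyond the gene in Ifit1, Dhx58 and Irf1, and almost wholly beyond it in Ifit3, which is 5.2 kb long. The H3K9me2 mean upstream came from few genes, since 3 of 10 had any H3K9me2 in that interval.

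Tlr3 (chr8:45395665-45411080, minus strand, 15.4 kb), the endosomal sensor, had H3K9me1 and H3K9me2 on either side of its main start sites but not over them. A region with the same borders in both lists, chr8:45411751-45420750, began 671 bp upstream of the outermost 5′ end and covered 330 bp of that window. The RefSeq start site lies 700 bp inside the gene, and its window held 0 bp of any mark. A second overlap, of 286 bp for H3K9me1 and 215 bp for H3K9me2, was at an alternative start site 12794 bp into the gene. In the body, H3K9me1 covered 5.25 kb (34.1%), H3K9me2 11.9% and H3K9me3 2.18%. The H3K9me2 and H3K9me3 bases in the body were all exonic and lay at the 3′ end of the gene, where both regions run on past it. H3K9me3 came no nearer than 11.9 kb to the start. The surroundings were well covered on both sides, with 54.0% of the upstream and 60.0% of the downstream 50 kb in H3K9me1 regions, and 49.5% and 59.3% in H3K9me2 regions. On chromosome 8 as a whole, 67.3% of protein-coding genes met H3K9me1, 30.6% H3K9me2 and 29.3% H3K9me3 at a start window, and Tlr3 thus lies on the most covered of the 4 chromosomes. The protein-coding genes over 1 Mb away with the most similar 9 covered shares were Mrpl16, Itgb1 and Psat1, with mean absolute differences of 6.33, 6.62 and 6.93 percentage points. None of these 3 genes had H3K9me2 at its start windows, where Tlr3 had 11.6%. That share is among the 9 used to choose them, so the difference is not a separate result.

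**Figure D3:**
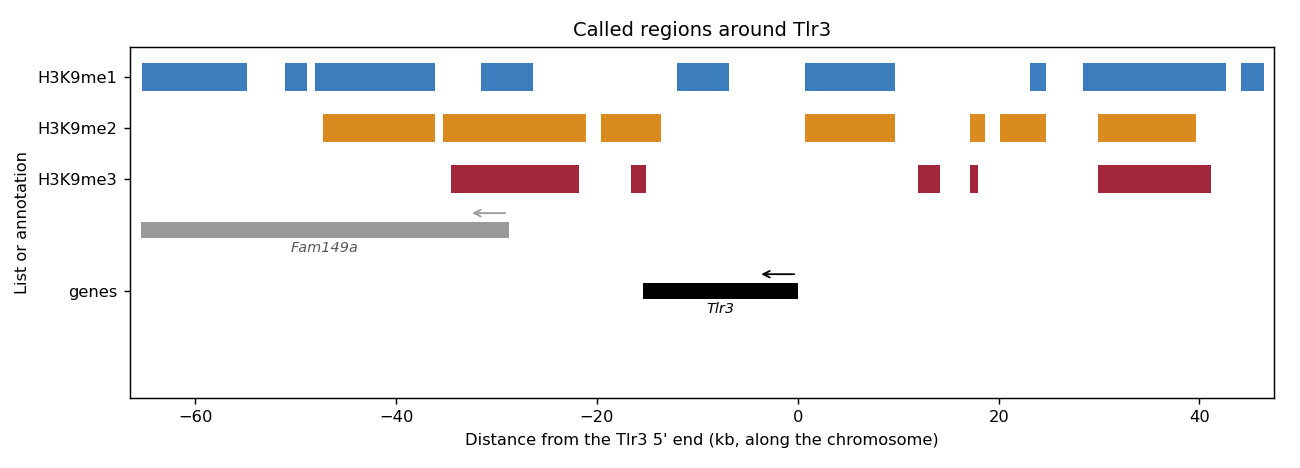
Called regions around Tlr3, with distance from its 5′ end (kb, along the chromosome) on the horizontal axis and 1 row per list above the annotated protein-coding genes (Tlr3 black, neighbour grey, arrows show the direction of transcription). The 15.4 kb gene holds 1 H3K9me1 region in its middle, while H3K9me2 and H3K9me3 reach it only at the 3′ end; bars are cut at 50 kb from the gene.

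Dhx58 (chr11:100694884-100704271, minus strand), the LGP2 helicase gene, carried H3K9me1 alone. Its region chr11:100695751-100699500 covered 39.9% of the body and included alternative start sites 5036 bp and 7651 bp into the gene, but none of the start sites near the 5′ end. An H3K9me1 region of 1.5 kb lay 1.23 kb upstream. The nearest H3K9me2 region was 39.3 kb and the nearest H3K9me3 region 34.0 kb from the 5′ end. Irf1 (chr11:53770014-53778374, plus strand), the transcription factor gene, was the least marked of the 10 genes. All 10 of its start sites and the whole body were free of every mark, and H3K9me1 began 25 kb upstream. Of the Irf1 neighbourhood, the body with 50 kb on each side, 81.7% was unmarked, against 65.7% for Dhx58. Chromosome 11 is the least covered of the 4 chromosomes, and 37.3% of its protein-coding genes met H3K9me1 at a start window, 8.3% H3K9me2 and 6.22% H3K9me3.

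The 3 Ifit genes, whose products bind viral RNA, had no mark at any start window but each had H3K9me1 further along the gene. In Ifit1 (chr19:34640871-34650009, plus strand) H3K9me1 began 3.13 kb downstream of the start and covered 65.8% of the body and 95.6% of the exonic bases, while H3K9me2 and H3K9me3 covered 0.0%. In Ifit2 (chr19:34550694-34576419, plus strand) it began 21.3 kb downstream and covered 14.6% of the body, and this region held 68.3% of the exonic bases. Ifit2 likewise had neither of the higher methylation states in the body. Ifit1 and Ifit2 were thus marked over most of their exonic bases, in H3K9me1 only.

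Ifit3 (chr19:34583531-34588731, plus strand), the partner of Ifit1 in RNA binding, differed from them. Regions of all 3 marks began at the same position, 1.97 kb downstream of its start. The H3K9me1 region was 1.5 kb wide and held none of the exonic bases, the H3K9me2 region was 6.0 kb and the H3K9me3 region 21.75 kb wide. H3K9me2 and H3K9me3 each covered 62.1% of the Ifit3 body and 95.8% of its exonic bases. The H3K9me3 region ran on over the neighbouring copy Ifit1bl1, and a further stretch of H3K9me1, H3K9me2 and H3K9me3 lay over Ifit3b. Ifit1bl1 had 83.2% of its start windows in H3K9me1 regions, 100% in H3K9me2 and 100% in H3K9me3. Ifit3b had 100% in H3K9me1, 48.5% in H3K9me2 and 62.5% in H3K9me3. Ifit1bl2, which starts 128 bp from Ifit1 on the other strand, had 0.0% in all 3 marks. Copies of this cluster share sequence: of all 100-base words, 21.9% in the Ifit3 body, 20.7% in Ifit3b and 17% in Ifit1bl1 also occurred elsewhere in the genome, but 0.929% in Ifit1 and 2.24% in Ifit2. A single read from such a word has no unique place unless its mate gives one, and the part of shared sequence in these regions was not tested.

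**Figure D4:**
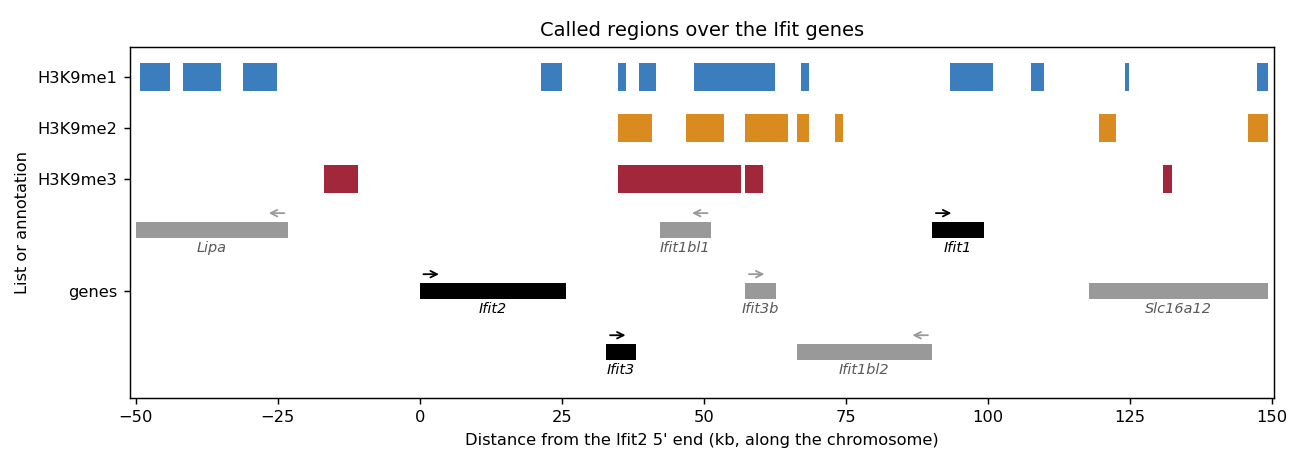
Called regions over the Ifit cluster, with distance from the Ifit2 5′ end (kb, along the chromosome) on the horizontal axis and 1 row per list above the annotated protein-coding genes (Ifit1, Ifit2 and Ifit3 black, other genes grey, arrows show the direction of transcription; bars are cut at 50 kb from the outer members). H3K9me2 and H3K9me3 regions lie over Ifit3, Ifit1bl1 and Ifit3b, and the Ifit1 and Ifit2 bodies meet H3K9me1 only.

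The neighbouring oligoadenylate synthetase genes Oas1a, Oas2 and Oas3 had H3K9me1 over most of their bodies, with the highest share of the 10 genes in Oas2. In Oas2 (chr5:120730333-120749853, minus strand) H3K9me1 covered 96.2% of the body, 100% of the exonic bases and 100% of the start windows. Its 5′ end lay in a region of 10.5 kb, chr5:120747001-120757500, which also held the 3′ part of Oas3. H3K9me2 covered 15.4% of the Oas2 body and met the windows of internal start sites but not that of the 5′ end, and H3K9me3 covered 0.0%. In Oas3 (chr5:120753098-120777661, minus strand) H3K9me1 covered 60.7% of the body, H3K9me2 17.9% and H3K9me3 6.11%. The region 90 bp upstream of Oas3 covered 911 bp of the 5′ window and is the one next to the ISRE shown above. The H3K9me2 overlap of Oas3 was at internal start sites 20006 bp and 21402 bp into the gene, close to its 3′ end.

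Oas1a (chr5:120896256-120907521, minus strand) was the member with the most overlap between marks. H3K9me1 covered 66.5% of its body, H3K9me2 73.2% and H3K9me3 59.9%, and each covered 72.6% of its exonic bases. The start itself was free of all 3 marks. On the upstream side an H3K9me2 region of 21.0 kb began 730 bp from the start and ran over the neighbouring copy Oas1d. H3K9me3 came no nearer than 4.52 kb. Of the Oas1a neighbourhood, 93.3% was inside at least 1 mark and 27.4% inside all 3. Of all 100-base words in the Oas1a body, 12.1% occurred elsewhere in the genome, against 0.0% in Oas3 and 0.654% in Oas2.

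Oasl2 (chr5:114896936-114912234, plus strand), an oligoadenylate synthetase-like gene at some distance from the others, had H3K9me1 alone in its body, in 1 region of 3.0 kb that covered 19.6% and began 8.31 kb downstream of the start. Its start window call rests on 180 bp near 1 alternative start site of 9. H3K9me1 was more extensive beside Oasl2 than in it, with 67.1% of the upstream and 67.5% of the downstream 50 kb covered.

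**Figure D5:**
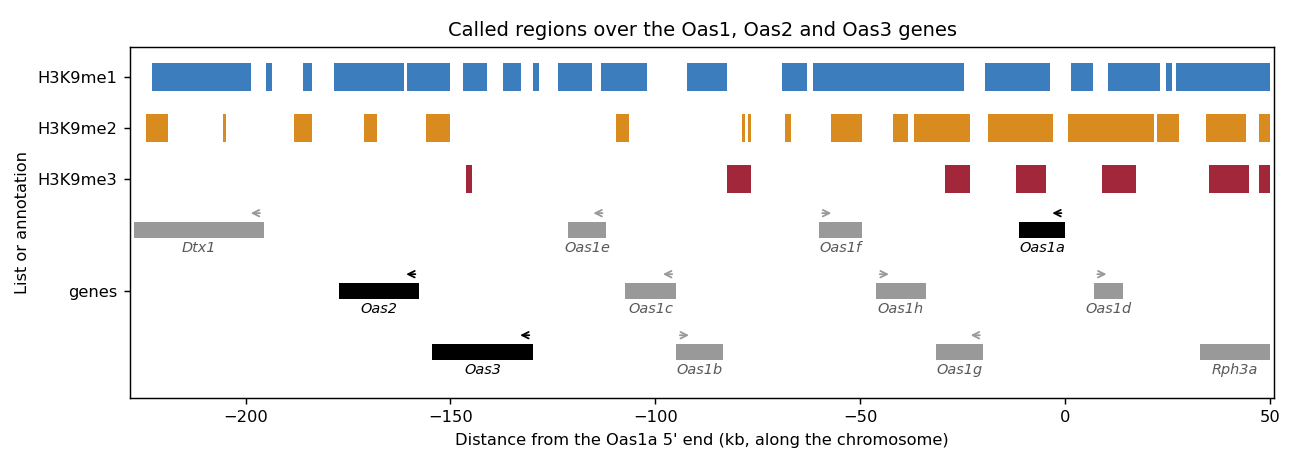
Called regions over the Oas1, Oas2 and Oas3 genes, with distance from the Oas1a 5′ end (kb, along the chromosome) on the horizontal axis and 1 row per list above the annotated genes (Oas1a, Oas2 and Oas3 black, other genes grey, arrows show the direction of transcription; bars are cut at 50 kb from the outer members). H3K9me1 regions recur along the whole stretch, while H3K9me2 and H3K9me3 are denser from Oas1h to Oas1d than over Oas2 and Oas3.

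Tandem copies of the members, all on chromosomes 5 and 19, were scored in the same way. Of 11 copies (Oas1b to Oas1h, of which Oas1b is annotated as a polymorphic pseudogene, Oasl1, Ifit1bl1, Ifit1bl2 and Ifit3b), H3K9me1 met the start window of 8, H3K9me2 that of 4 (Oas1d, Oas1g, Ifit1bl1 and Ifit3b) and H3K9me3 that of 3 (Oas1g, Ifit1bl1 and Ifit3b), while Oas1b, Oas1c and Ifit1bl2 met none. Of all protein-coding genes of chromosomes 5 and 19, 50.2% and 55.4% met H3K9me1 there, 13.8% and 21.4% H3K9me2, and 11.9% and 18.1% H3K9me3. All 11 copies had H3K9me1 in the body, beside 71.6% and 75.8% of the protein-coding genes of these chromosomes, 8 had H3K9me2, beside 24.6% and 34.4%, and 4 had H3K9me3, beside 19.9% and 28.8%. Oas1e, Oas1f and Oas1h had 100% of their start windows in H3K9me1 regions and 0.0% in the other marks. The difference between the 10 members and their copies was not tested, since neighbouring genes share regions.

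The surroundings of the members were scored as bodies with 50 kb on each side, merged into 7 neighbourhoods of 906 kb in all. H3K9me1 covered 47.4% of them (95% Wilson interval 44.6 to 50.3%, over 1208 bins and for counting error only), H3K9me2 22.3% (20.1 to 24.8%) and H3K9me3 12.6% (10.8 to 14.6%). Neighbouring bins are not independent, so the true uncertainty is wider. The 4 chromosomes as a whole were covered to 24.7%, 17.4% and 21.3%. H3K9me1 was therefore the most and H3K9me3 the least extensive mark around these genes. In the 50 kb flanks alone, the median covered share was 47.7% for H3K9me1, 19.6% for H3K9me2 and 14.2% for H3K9me3, against 38.8%, 4.5% and 2.25% around the background genes. Relative to other genes rather than to whole chromosomes, H3K9me3 in the flanks was thus not low.

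The combination of marks was set beside that of the whole chromosomes, which include gene-poor sequence that the neighbourhoods, being centred on genes, do not sample alike. Of the marked bases in the neighbourhoods, 52.6% carried H3K9me1 alone, against 37.2% on the 4 chromosomes, and 18.7% carried H3K9me1 with H3K9me2 but not H3K9me3, against 7.02%. H3K9me3 alone made up 5.02% against 21.6%, and H3K9me2 with H3K9me3 but not H3K9me1 made up 3.29% against 14.9%. All 3 marks together were at 12.5% against 11.2%. The neighbourhoods ranged from 18.3% covered by any mark at Irf1 and 34.3% at Dhx58 to 72.8% at Tlr3 and 93.3% at Oas1a, with 40.2% over the Ifit cluster, 62.9% at Oasl2 and 70.0% at Oas2 and Oas3.

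Other genes of the pathway were scored from a list of 48 sensors, regulators and effectors, without the tandem copies. H3K9me1 met the start window of 11 of these 48 genes, beside 28.3% of the 21938 protein-coding genes of all chromosomes. H3K9me2 met it in 2 genes, beside 10.8%, H3K9me3 in 1 gene, beside 10.2%, and any mark in 11 genes, beside 33.1%. These counts differed with the chromosome. H3K9me1 met 8 of the 15 listed genes on broadly covered chromosomes (here 8, 9, 10, 11, 14 and 17) and 3 of the 33 on the others. H3K9me2 and H3K9me3 met none of those 33 genes. The background share was not split in this way, so it cannot be told whether the listed genes differ from other genes of these chromosomes. Of 12 sensors and signalling genes, Mavs, Tbk1, Ikbke and Eif2ak2 met H3K9me1. Among 15 regulators and receptors these were Irf2, Irf8, Irf9, Stat2 and Tyk2, and among 21 effectors Bst2 and Samhd1. Of these 11 genes, only Irf8 (100%) and Bst2 (22.8%) had any H3K9me1 within 1 kb of the outermost 5′ end. The others met it only at alternative start sites. Irf8, a transcription factor of myeloid and B cells, was the gene with H3K9me3 at a start window, with 100% of its start windows in H3K9me1, 63.7% in H3K9me2 and 37.1% in H3K9me3 regions. Irf2, a repressor of interferon genes, had 46.7% in H3K9me1 and 7.94% in H3K9me2. Irf3, Irf5 and Irf7 had 0.0% in all 3 marks, as Irf1 did. These 3 genes lie on chromosomes 6 and 7, which are not among the broadly covered ones. Their 50 kb flanks also had 0.0% in any mark, against 19.9% for Irf1. Irf2 and Irf8 lie on chromosome 8, the most covered of the chromosomes that hold the members.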

How the data were processed

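H3K9me1, H3K9me2, H3K9me3 and input were sequenced from wild-type MEFs, with 2 replicates each. Per the study's methods and the submitters' processing notes, the authors aligned reads to mm10 (GRCm38) with BWA 0.7.1 and called regions with histoneHMM. The deposited lists (1 per mark, replicates together) hold region positions only, on a grid of 750 bp with 1-based starts. The study's methods give paired-end reads and an intended depth per sample, but the lists hold no counts. How replicates and input entered the call and its threshold are not given in the sources used here, so region width stood in for a stricter threshold. No list of the input was used.

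Regions were intersected with GENCODE M21 genes and GRCm38 sequence in Python 3.11.15 with NumPy 2.4.6, pandas 2.3.3, SciPy 1.17.1 (Wilson intervals) and Matplotlib 3.10.9. The interval code was tested on simulated data. Alternatives changed the start sites, window, flanks, region width, joining and overlap. The members and lists were chosen with earlier results of these data known. All 10 members are named, with genes of the wider list that met a mark at the start, and 3 genes most like Tlr3. No test over genes was made.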

Additional observations from a re-analysis of the deposited data

How the results depend on the processing

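No paired analysis was possible because each list holds both replicates together, with no value per replicate, and for the same reason the fits with a replicate block and without each replicate were not run. The RefSeq start sites, and all alternatives of the split of the gene body at its midpoint, were chosen after seeing the data. Of 80 recomputed values, 52 stayed close to the main value, within 1.5 times for counts of genes and inside the 95% interval for covered shares, and 28 did not. Genes with H3K9me1 at a start window (5) fell to 3 with the 5′ end only, to 3 with 0.5 kb windows, to 3 when regions had to be 5 kb wide, to 2 when 50% of the window had to be covered and to 1 when RefSeq starts were used, which 3 of these 5 genes have (Oas2 and Dhx58 have no entry). For H3K9me2 (4) these were 2 with the 5′ end only, 2 with 0.5 kb, 0 with 50% covered and 1 with RefSeq start sites. H3K9me3 (0) rose to 1 with 2 kb windows. Any mark (6) fell to 3 with 0.5 kb, 2 with 50% covered and 2 with RefSeq starts. When regions under 5 kb were dropped, H3K9me1 was in 5 bodies in place of 9. H3K9me3 bodies fell from 4 to 2 with 10% of the body covered, 2 with regions of at least 2 kb and 2 with at least 5 kb. The part after the midpoint was the more covered in 5 genes for H3K9me1 with regions of at least 5 kb, and for H3K9me3 in 2 with at least 2 kb and 2 with at least 5 kb. The H3K9me1 share of the neighbourhoods (47.4%) became 39.2% with 25 kb flanks, 40.6% with regions of at least 5 kb and 55.8% with regions up to 5 kb apart joined. H3K9me2 (22.3%) became 18.0% with regions of at least 5 kb and 25.5% when joined, and any mark (55.3%) became 48.8% with 25 kb flanks, 47.5% with regions of at least 5 kb and 63.7% when joined. Fewer or narrower intervals give fewer overlaps by construction. The lists hold no read counts per region, so a gene without a region is not shown to be unmethylated.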

Other observations

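Base composition of the members varied without following their marks in a simple order. The Irf1 body, free of regions, had 52.5% GC and 14.2% soft-masked (repeat) bases, and the Ifit1 body, with H3K9me1 over most of its exons, had 42.9% and 14.8%. Oas3 and Dhx58 bodies had 50.8% and 50.4% GC. Tlr3, at 39.4%, had the lowest GC of the 10 bodies. The 250 bases before the RefSeq start had a median of 51.2% GC over the 10 member promoters (37.6 to 74.4%), beside 52.4% over all promoters. The first Irf1 promoter held 25 CpG dinucleotides, beside a median of 6.0 over all promoters and 5.0 over those of the members. In other effectors outside the members, Xaf1 had 57.7% of its body in H3K9me1 and 62.0% in H3K9me2 regions with none of H3K9me3, and Igtp had 10.5% and 29.1%. Both genes were picked after their values were seen.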
